A study of Mus musculus with 22 samples.

Results

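The comparison described here is *Phf8* KO against WT in embryonic stem cells (ESCs), the cultured pluripotent cells of the early embryo. Its members were the samples labelled as ESCs, 4 of the 22 samples of the series, 2 WT (WT1 and WT2) and 2 *Phf8* KO (KO1 and KO2), and all carried the strain background B6x129SvJ. The remainder of the series came from neural progenitor cells (NPCs), from the striatum (STR) and from the cortex (PFC, prefrontal), each with 3 WT and 3 KO samples, and the NPCs served as the nearest comparison. STR and PFC were taken from animals labelled as 2 months old. RNA was extracted from the cultures, and reads were counted on genes. The labels state that the ESC lines came from outgrowths of blastocysts and were kept on gelatin or feeder cells, whereas the methods of the study describe a conditional allele made in the male line V6.5, with *loxP* sites around exons 7 and 8, and KO clones obtained by transient Cre expression. Whether the 2 KO samples came from 1 clone or from several, and what the replicate number in a label stands for, are not given in the sources used here. The p-values below therefore measure only spread among these samples, which may be technical or clonal. Where the replicate number is in the model, the spread between the numbers is removed. Such p-values then measure how far the KO and WT difference varies between the 2 numbers, with information shared across genes.

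PHF8 is a histone demethylase of the Jumonji C (JmjC) family encoded on the X chromosome. Its plant homeodomain finger binds H3K4me3 at active promoters, and its catalytic domain removes the repressive marks H3K9me2 and H4K20me1. Mutations of the human gene cause an X-linked intellectual disability. PHF2 and KDM7A are its close relatives. ESCs express a core of pluripotency factors and, on leaving the naive state, raise genes of the primed epiblast and later those of the germ layers.

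The exons removed in the KO allele are shown because they define the genotype. In the GENCODE annotation of build GRCm38, *Phf8* (ENSMUSG00000041229) runs from 151520672 to 151633859 on the plus strand of chromosome X. Exon 7 of the 22-exon transcript Phf8-201 lies at chrX:151554134-151554320 and exon 8 at chrX:151555973-151556135, and both are coding. Together they hold 350 of its 3069 coding bases. That number leaves a remainder of 2 after division by 3, so joining exon 6 to exon 9 changes the reading frame. Both exons are present in 7 of the 9 transcripts annotated as protein-coding.
Exon 7: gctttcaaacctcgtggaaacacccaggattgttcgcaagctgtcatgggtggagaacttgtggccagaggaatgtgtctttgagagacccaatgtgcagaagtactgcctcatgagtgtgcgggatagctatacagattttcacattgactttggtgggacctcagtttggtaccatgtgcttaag
Exon 8: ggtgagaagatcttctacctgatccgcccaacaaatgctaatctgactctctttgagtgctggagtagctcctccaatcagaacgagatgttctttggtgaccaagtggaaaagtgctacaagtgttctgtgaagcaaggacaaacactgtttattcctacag

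The deposited counts do not resolve exons, so reads from the remaining exons of the KO transcript were included in every *Phf8* value. *Phf8* was counted 700 and 732 times in WT1 and WT2 and 183 and 225 times in KO1 and KO2. Scaled to the library size after TMM normalization (CPM), the levels of *Phf8* were 59.5 and 54.7 in WT and 13.4 and 19.6 in KO. Both KO libraries lay below both WT libraries, in accord with their labels. The log2 fold change fitted within the replicate number was -1.80 (SE 0.11), with an adjusted p = 6.2e-13 in edgeR's quasi-likelihood test. *Kdm7a* stood at 69.7 and 52.1 CPM in WT and 76.0 and 51.9 CPM in KO, and *Phf2* at 16.2 and 21.4 CPM in WT and 17.2 and 26.3 CPM in KO. Neither of the relatives passed the test (adjusted p = 0.70 and 0.39 in edgeR's quasi-likelihood test). Scaled to gene length, the family members in WT1 were at 6.39 RPKM for *Phf8*, 6.93 RPKM for *Kdm7a* and 2.96 RPKM for *Phf2*.

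Before genotype could be compared, the libraries were examined for other differences, since the replicate number separated them more than genotype did. The depth was even, from 11455757 to 13657534 reads on genes. All 4 libraries expressed the defining ESC markers, with *Pou5f1* at 841 and 736 CPM in WT and 789 and 739 CPM in KO. The 30 genes of the pluripotency list summed to 12200 and 10740 CPM in WT1 and WT2 and to 11780 and 10350 CPM in KO1 and KO2. In contrast, a list of 21 fibroblast genes, the cells commonly used as feeders, summed to 346 CPM in WT1 and 351 CPM in KO1 but to 6142 CPM in WT2 and 7577 CPM in KO2. The type I collagen gene *Col1a1* was at 68.8 and 65.3 CPM in the libraries numbered 1 and at 1421 and 1771 CPM in those numbered 2. Fibroblast RNA thus differed mainly with the replicate number, and among the libraries numbered 2 it was higher in KO. In bulk RNA a change in the share of cells and a change in RNA per cell cannot be told apart. Y-linked genes were left aside. Of the 7 that were tested, 4 were lower in KO in both numbers.

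**Figure D1:**
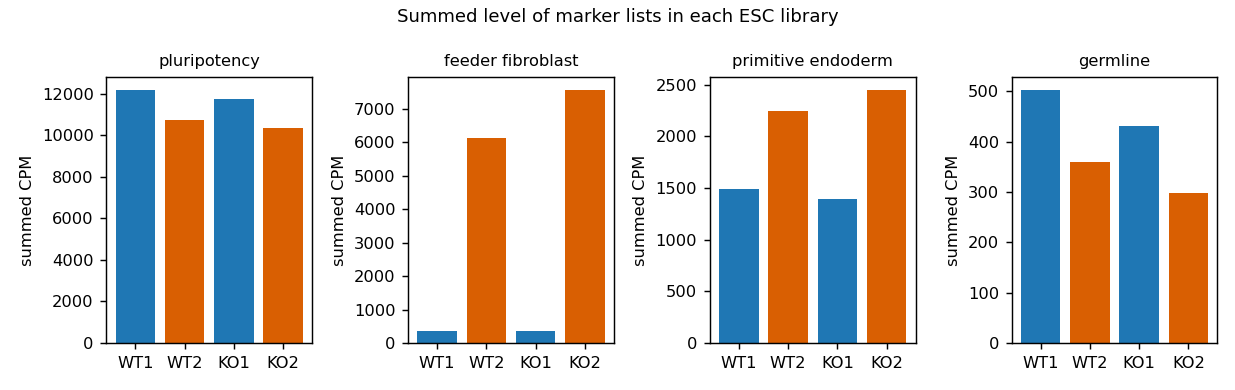
Summed CPM of 4 marker lists in each of the 4 ESC libraries, with libraries numbered 1 in blue and those numbered 2 in orange. The fibroblast list reaches 6142 and 7577 CPM in WT2 and KO2 and stays near 350 CPM in WT1 and KO1, while the pluripotency list lies between 10350 and 12200 CPM in all 4.

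Across genes, libraries with the same number were closest to each other. The correlation of log2 CPM over the 15080 genes tested was 0.993 between WT1 and KO1 and 0.992 between WT2 and KO2, compared with 0.956 between the 2 WT and 0.949 between the 2 KO libraries. The chi-square per degree of freedom, which is 1 for counting error alone, was 3.33 and 4.42 within numbers and 29.6 and 40.5 within genotypes. Each of these pairs thus differed by more than counting error. Whether libraries of a genotype came from the same clone or culture cannot be told from these values. KO was compared with WT within each number, as the plan of this comparison prescribed. The differences KO1 minus WT1 and KO2 minus WT2, which share no library, correlated across genes with r = 0.163 over 15073 genes outside chromosome Y and with r = 0.310 over the 9871 of these with a mean of at least 10 CPM. These are descriptions across genes, which are not independent replicates.

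Most differences were small. The median absolute log2 difference was 0.12 in each number. At 1.5-fold or more in both numbers, 129 genes (0.856% of those tested) were higher and 32 genes (0.212%) were lower in KO, while 92 genes moved in opposite directions by that much. At 2-fold or more in both numbers, 12 genes were higher and 1 gene, *Phf8*, was lower, with 2 genes in opposite directions. Of the 15073 genes, 1790 (11.9%) had both KO libraries above both WT libraries and 1799 (11.9%) had both below.

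In a model of genotype alone, 0 genes (0%) passed an adjusted p of 0.05 in edgeR's quasi-likelihood test, with 108 higher and 59 lower genes at an unadjusted p under 0.05, and *Phf8* had the adjusted p = 1 in edgeR. DESeq2, edgeR's likelihood ratio test and edgeR's exact test each called 1 gene in that model, which was *Phf8*. When the replicate number was added to the model, 308 genes (2.04%) were higher and 204 genes (1.35%) were lower in KO in edgeR's quasi-likelihood test. The same model called 298 genes in edgeR's likelihood ratio test and 5 genes in DESeq2, namely *Zdbf2*, *Sh3bgrl*, *Lefty1*, *Zfp229* and *Phf8*. A fit of ESCs and NPCs together, which takes its estimate of spread from 10 libraries, called *Phf8* alone. Of the lists below, the likelihood ratio test called 9 antigen and interferon genes (8 higher and 1 lower), 8 Notch and proneural, 6 imprinted, 5 germline, 3 cholesterol, 3 primed epiblast, 3 Nodal and BMP and 2 fibroblast genes. It called 0 of the pluripotency, E2F and replication, glycolysis, FGF and ERK, and LIF and STAT3 genes that are given as called below. DESeq2 called *Zdbf2* and *Lefty1* alone among the genes of these lists outside the PHF8 family. The within-number fit rests on 1 residual degree of freedom, and the calls listed below are those of that fit unless stated otherwise. Its common coefficient of variation, edgeR's estimate of spread, was 4.37%, compared with 31.4% without the number. In NPCs it was 21.2% without the number. Very small p-values below rest on that small spread.

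The 512 genes called within the number changed little in size. Their median absolute log2 fold change was 0.31, and 86 genes exceeded 1.5-fold and 18 exceeded 2-fold. The sign was the same in both numbers for 505 genes and opposite for 7 genes, beside 8873 of all 15073 genes with the same sign. For 326 genes the WT and KO libraries did not overlap. Over all 15073 genes, 1790 had both KO libraries above both WT libraries and 1799 had both below. Agreement of the pairs was partly built into the calls, which used these same libraries. Called in each of 4 other edgeR fits with the same filter on low counts (RLE size factors, the likelihood ratio test, no robust estimation and a GC content offset) were 294 of the 512 genes, 204 higher and 90 lower. Without genes that differed 2-fold or more between the numbers, a check added after the data were seen, 276 genes were higher and 235 lower.

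**Figure D2:**
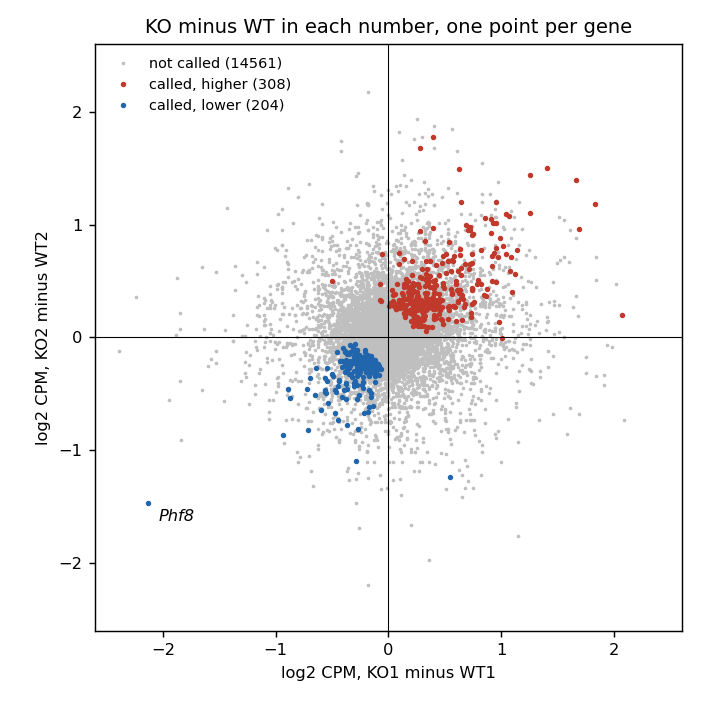
Log2 CPM difference KO1 minus WT1 (horizontal) against KO2 minus WT2 (vertical), one point per gene outside chromosome Y, with genes called higher in red (308), called lower in blue (204) and all others in grey. *Phf8* stands alone at the lower left, most called genes lie close to the origin, and 6 genes fall beyond the axes.

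Of the 8 higher genes with the smallest p-values, *Hes6*, *Insm1*, *Neurod1*, *Gadd45g* and *Dll1* are described first. *Hes6*, which encodes a basic helix-loop-helix protein that opposes HES1, was at 22.4 and 23.6 CPM in WT and 34.9 and 40.8 CPM in KO. *Insm1*, a zinc-finger factor of neuronal and endocrine progenitors, was at 9.02 and 11.1 CPM in WT and 17.1 and 23.2 CPM in KO. *Neurod1*, a proneural factor, was at 27.6 and 30.4 CPM in WT and 39.3 and 50.8 CPM in KO. In these genes both KO libraries exceeded both WT libraries, as in 11.9% of all genes. The log2 fold changes were 0.72 (SE 0.09), 0.997 (SE 0.13) and 0.63 (SE 0.09). *Gadd45g*, a stress-response and differentiation gene, followed at 15.1 and 24.9 CPM in WT and 25.4 and 39.4 CPM in KO. The Notch ligand *Dll1* was at 32.8 and 17.5 CPM in WT and 49.0 and 28.9 CPM in KO. The *Dll1* groups overlapped because both libraries numbered 2 were lower, but KO was higher in each number, by 0.58 and 0.72 on the log2 scale.

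A list of 34 genes of the Notch pathway and of proneural factors was composed after these genes had been seen, so its counts only describe them. Of the 25 members tested, 9 rose, 0 fell and 16 did not pass, beside 2.04% higher and 1.35% lower over all genes, and the median log2 fold change was 0.21 beside 0.01 over all genes tested. Besides the 5 genes above, the atypical Notch ligand *Dll3* rose from 2.89 and 3.51 CPM in WT to 5.58 and 6.81 CPM in KO. The neuronal splicing factor *Srrm4*, the Fringe glycosyltransferase *Rfng* and *Numbl*, a relative of the Notch inhibitor Numb, rose by 0.90, 0.37 and 0.26 on the log2 scale. The receptors *Notch1*, *Notch2*, *Notch3* and *Notch4* did not pass the test, nor did the effector *Hes1*, at 30.7 and 57.9 CPM in WT and 33.4 and 70.2 CPM in KO. Neural ectoderm genes were measured as a separate list, and of 9 members tested 0 were called in edgeR's quasi-likelihood test. Its members *Sox1* and *Pax6* were at 7.40 and 3.23 CPM in WT1.

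**Figure D3:**
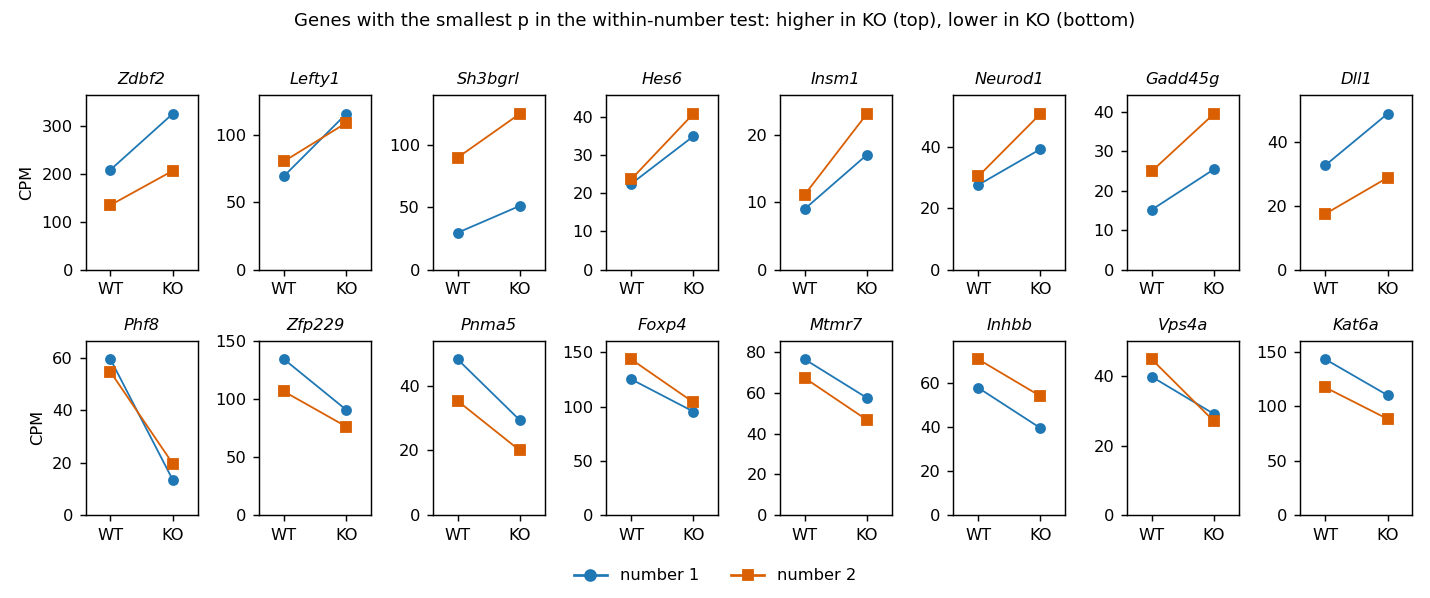
CPM in WT and KO ESCs for the 8 higher (top) and 8 lower genes (bottom) with the smallest p-values within the number, with a line joining the libraries of each number. Genes were drawn only from those moving the same way in both numbers, so that all 16 do so follows from the choice. In *Zdbf2*, *Sh3bgrl* and *Dll1* the level also differs between the numbers so that WT and KO overlap.

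The other higher genes of smallest p-value had different roles. *Zdbf2*, an imprinted gene expressed from the paternal copy, had the smallest p-value of all, at 209 and 135 CPM in WT and 326 and 207 CPM in KO. Its log2 fold change was 0.63 (SE 0.05, adjusted p = 2.5e-23 in edgeR's quasi-likelihood test), with 0.64 in number 1 and 0.61 in number 2. The X-linked *Sh3bgrl*, a small thioredoxin-fold protein, was at 29.6 and 90.0 CPM in WT and 51.2 and 125 CPM in KO. *Lefty1*, a secreted inhibitor of Nodal, was at 69.7 and 80.7 CPM in WT and 116 and 109 CPM in KO, so both KO libraries were above both WT libraries.

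Of 35 imprinted genes tested, 8 rose, 0 fell and 27 did not pass (2.04% of all genes were called higher), with a median log2 fold change of 0.10 against 0.01 for all genes. *Peg3*, which encodes a zinc-finger protein expressed from the paternal copy, was at 106 and 63.2 CPM in WT and 159 and 76.3 CPM in KO. The noncoding *Meg3*, expressed from the maternal copy, was at 188 and 288 CPM in WT and 224 and 363 CPM in KO. Its neighbour *Rian* was at 294 and 318 CPM in WT and 337 and 377 CPM in KO. KO exceeded WT in each number for all 3, with log2 fold changes of 0.45, 0.29 and 0.22. *Impact*, *Mest*, *Nnat* and *Dlk1* also rose, by 0.32, 0.29, 0.60 and 0.46 on the log2 scale. Genes expressed from either parental copy were thus among those that rose. *H19* did not pass, with 30.4 CPM in WT1 and 8.15 CPM in KO1 against 182 CPM in WT2 and 184 CPM in KO2. *H19*, *Igf2* and *Dlk1* were higher in the libraries numbered 2, as were the fibroblast genes, and the part of fibroblast RNA in their values was not tested.

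The Nodal and bone morphogenetic protein (BMP) pathways pattern the early embryo. Of 17 genes tested, 4 rose (*Lefty1*, *Lefty2*, *Skil* and *Id3*), 1 fell (*Bmp4*) and 12 did not pass, beside 2.04% higher and 1.35% lower over all genes. *Skil* and *Id3* were not called in the likelihood ratio test. The ligand *Nodal* itself was at 79.4 and 78.3 CPM in WT and 77.5 and 81.3 CPM in KO. *Lefty2*, the second inhibitor, was at 63.4 and 99.7 CPM in WT and 95.9 and 110 CPM in KO. *Bmp4*, a ligand, was at 19.99 and 27.1 CPM in WT and 12.0 and 19.7 CPM in KO, so that both KO libraries were lower. *Inhbb*, the activin beta-B subunit and no member of this list, fell from 57.8 and 70.8 CPM in WT to 39.5 and 54.0 CPM in KO. The median of the list was 0.12 on the log2 scale. *Id3*, a BMP target, was at 11.2 and 56.5 CPM in WT and 13.0 and 70.2 CPM in KO and followed the replicate number more than genotype.

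Pluripotency genes were close to WT. Of 30 tested, 0 rose, 4 fell and 26 did not pass (1.35% of all genes were called lower), with a median log2 fold change of -0.05. Of the 30, 19 were lower and 5 higher in both numbers, beside 4291 lower and 4582 higher of all 15073 genes. *Klf4* was at 535 and 367 CPM in WT and 459 and 315 CPM in KO. *Tfcp2l1* was at 461 and 382 CPM in WT and 398 and 332 CPM in KO. Both are factors of the naive state, and both fell by about the same amount in each number, with log2 fold changes of -0.22 and -0.21. *Dppa2* and *Nr5a2* fell by 0.22 and 0.21. *Sox2*, *Nanog* and *Esrrb* did not pass, with log2 fold changes of -0.07, -0.13 and -0.05. In edgeR's likelihood ratio test 0 of the 30 were called. *Klf4* and *Tfcp2l1* were also lower in the libraries numbered 2, which held more fibroblast RNA.

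Several genes of the primed epiblast rose in KO. Of 13 tested, 4 rose, 0 fell and 9 did not pass, beside 2.04% of all genes called higher, and the median log2 fold change was 0.21. *Pim2*, a serine/threonine kinase, was at 32.6 and 34.9 CPM in WT and 49.5 and 48.4 CPM in KO. The de novo DNA methyltransferase *Dnmt3a* was at 304 and 233 CPM in WT and 342 and 308 CPM in KO. *Dnmt3b* was at 301 and 316 CPM in WT and 374 and 338 CPM in KO, and *Pou3f1*, a POU-domain factor, was at 19.6 and 16.7 CPM in WT and 25.3 and 22.9 CPM in KO. In all 4 genes both KO libraries were above both WT libraries, as in 11.9% of all genes. *Fgf5*, the usual marker of that state, was low, at 0.851 and 0.748 CPM in WT and 1.25 and 1.48 CPM in KO, and did not pass, and *Otx2* was at 31.5 and 50.2 CPM in WT and 36.5 and 48.7 CPM in KO. Of 15 primitive streak genes only *Eomes* was expressed enough to be tested, and it was not called, at 10.2 and 11.9 CPM in WT and 7.63 and 8.81 CPM in KO.

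Several germline genes, of a kind that DNA methylation silences in somatic cells, fell in KO. Of 20 tested, 0 rose, 6 fell and 14 did not pass, beside 1.35% of all genes called lower, and the median log2 fold change was -0.18. *Tuba3a*, a testis tubulin, was at 28.4 and 22.5 CPM in WT and 19.5 and 15.01 CPM in KO. The meiotic regulator *Sohlh2* was at 21.3 and 18.0 CPM in WT and 15.3 and 12.8 CPM in KO, and *Stk31*, a kinase of the germline, was at 28.4 and 22.6 CPM in WT and 20.9 and 17.2 CPM in KO. In these genes both KO libraries were below both WT libraries, as in 11.9% of all genes. *Ddx4*, an RNA helicase of germ cells, was at 69.7 and 45.3 CPM in WT and 59.1 and 33.8 CPM in KO. *Hormad1*, a protein of the meiotic chromosome axis, fell by 0.41 on the log2 scale and *Mael*, a factor of piRNA-dependent transposon silencing, by 0.32. The sum of the list was 503 and 359 CPM in WT and 430 and 298 CPM in KO, so it also fell from number 1 to number 2, and the part of the cell mixture in this was not tested.

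Cholesterol synthesis genes were mostly lower in KO by a small amount. Of 24 tested, 0 rose, 5 fell and 19 did not pass, beside 1.35% of all genes called lower, and with a GC content offset 3 were called. The median log2 fold change was -0.17. In both numbers 20 genes were lower and 1 was higher, beside 4291 lower and 4582 higher of all 15073 genes. Both KO libraries lay below both WT libraries in 13 of the list, compared with 11.9% of all genes. *Stard4*, which moves cholesterol between membranes, was at 76.1 and 79.9 CPM in WT and 58.6 and 60.0 CPM in KO. *Hmgcs1*, the synthase of the mevalonate pathway, was at 471 and 488 CPM in WT and 402 and 408 CPM in KO. *Msmo1*, a sterol oxidase, was at 161 and 158 CPM in WT and 129 and 135 CPM in KO. The 2 libraries of each genotype differed little for these 3 genes, and their log2 fold changes were -0.39 (SE 0.07), -0.24 (SE 0.05) and -0.27 (SE 0.05). The epoxidase *Sqle* fell by 0.17 on the log2 scale. The single gene higher in both numbers was *Tm7sf2*, a sterol reductase, at 12.7 and 12.8 CPM in WT and 14.2 and 15.9 CPM in KO.

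**Figure D4:**
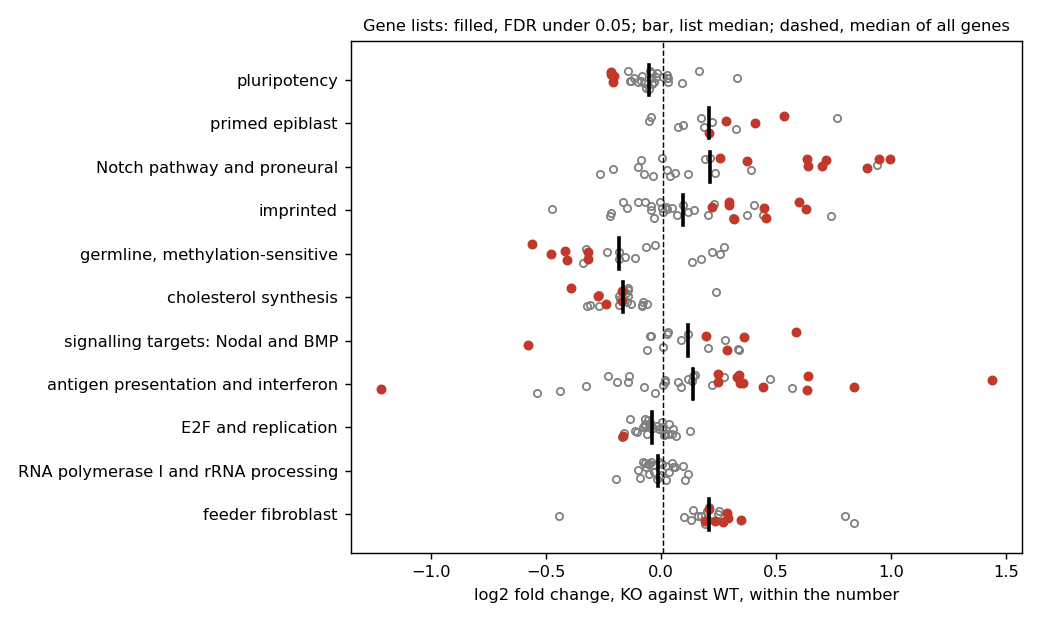
Log2 fold change within the number for the tested members of 11 gene lists, with filled red circles for genes with an adjusted p under 0.05, a vertical bar at the list median and a dashed line at the median of all genes (0.01). The Notch and proneural (0.21) and primed epiblast (0.21) medians lie right of the line, and the germline (-0.18) and cholesterol (-0.17) medians lie left of it.

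Genes of antigen presentation and interferon responses gave a mixed picture in a list composed after the data were seen. Of 34 tested, 11 rose, 1 fell and 22 did not pass, beside 2.04% of all genes called higher and 1.35% called lower. The median difference of the list was 0.36 in number 1 and -0.01 in number 2. *H2-Q4*, a class I histocompatibility gene, was at 1.45 and 1.35 CPM in WT and 3.67 and 3.93 CPM in KO, and *H2-K1* was at 19.99 and 14.3 CPM in WT and 24.5 and 21.99 CPM in KO. *Psme1*, a proteasome activator subunit, was at 41.8 and 40.5 CPM in WT and 54.4 and 49.7 CPM in KO. *Zbp1*, a sensor of nucleic acids, was at 6.04 and 5.08 CPM in WT and 11.5 and 8.46 CPM in KO. Both KO libraries exceeded both WT libraries in all 4, as in 11.9% of all genes. Reads from near-identical histocompatibility genes may have been lost or split, so the values of *H2-Q4* and *H2-K1* are uncertain. *B2m*, *Irf1*, *Ifitm1*, *Parp9*, *Ddx60*, *Aim2* and *Serping1* rose as well. The interferon-induced *Isg15* did not pass and was at 0 CPM in WT1 and 0.22 CPM in KO1 and at 9.72 CPM in WT2 and 7.94 CPM in KO2. *Ifit3*, the gene that fell, was at 0 and 5.76 CPM in WT and 0.0734 and 2.36 CPM in KO, and its signs in the 2 numbers were opposite.

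Cell-cycle and ribosome-production genes, which bear on growth, were close to WT. The calls below stand beside 2.04% of all genes called higher and 1.35% called lower. Of 30 E2F and replication genes tested, 0 rose and 1 fell (*Cdk1*, at 307 and 266 CPM in WT and 265 and 246 CPM in KO), and the median log2 fold change was -0.04. Of 26 genes of RNA polymerase I and rRNA processing 0 were called in edgeR's quasi-likelihood test, with a median of -0.01. Of 13 CDK inhibitors and cyclin D genes 0 were called, and *Cdkn1a* was at 51.5 and 152 CPM in WT and 44.3 and 178 CPM in KO, following the number. Of 20 p53 targets 1 fell (*Perp*) and 0 rose. Of 22 tested methyltransferases and demethylases of H3K9, H4K20 and H3K27, the marks that PHF8 acts on among them, 0 were called in edgeR's quasi-likelihood test, with a median of -0.05. In each of these lists the members that did not pass may still differ by less than these 4 libraries can show.

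Apart from the fibroblast genes, the remaining lists gave few calls, beside 2.04% of all genes called higher and 1.35% called lower. Glycolysis and hypoxia genes had 1 of 28 higher (*Gpi1*), ATF4 and amino acid genes 2 of 25 higher (*Ddit4* and *Stc2*), FGF and ERK targets 1 of 19 lower (*Fos*), LIF and STAT3 genes 2 of 15 lower (*Klf4* and *Tfcp2l1*, already counted above) and two-cell-like genes 1 of 12 higher (*Usp17la*). In edgeR's quasi-likelihood test 0 genes were called among 13 primitive endoderm, 10 trophoblast, 10 Wnt target, 3 serotonin receptor and 18 listed *Phf8* neighbour genes. *Gm15148*, called near *Phf8* and described below, is not on that last list. Of the 21 fibroblast genes 7 were called higher. They included *Tagln*, at 36.8 and 272 CPM in WT and 46.5 and 348 CPM in KO, and *Col5a1*, at 33.8 and 488 CPM in WT and 38.8 and 615 CPM in KO. The median difference of that list was -0.05 in number 1 and 0.29 in number 2. *Tagln*, *Col5a1* and *Mmp2* were higher in KO in both numbers, by 0.34, 0.20 and 0.20 on the log2 scale in number 1, while *Col5a2*, *Col6a1*, *Lox* and *Acta2* had differences of 0.08, -0.08, 0.00 and -0.06 there. Fibroblast genes are thus among the 308 called higher, and how many more of these come from feeder RNA was not tested.

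Among lower genes with the smallest p-values after *Phf8*, the 7 others had both KO libraries below both WT libraries, as had 11.9% of all genes. They were picked by p-value in these same libraries. *Zfp229*, a zinc-finger gene, was at 134 and 106 CPM in WT and 90.6 and 76.2 CPM in KO. *Pnma5*, a member of the paraneoplastic antigen family on the X chromosome, was at 48.2 and 35.4 CPM in WT and 29.4 and 19.98 CPM in KO. *Foxp4*, a forkhead factor, was at 125 and 144 CPM in WT and 95.3 and 104 CPM in KO. Their log2 fold changes were -0.53 (SE 0.06), -0.76 (SE 0.09) and -0.43 (SE 0.06). *Mtmr7*, a phosphoinositide phosphatase, was at 76.5 and 67.3 CPM in WT and 57.5 and 46.7 CPM in KO. *Vps4a*, an ATPase that disassembles the ESCRT-III complex, was at 39.9 and 44.9 CPM in WT and 29.1 and 27.1 CPM in KO. *Kat6a*, a histone acetyltransferase, was at 143 and 117 CPM in WT and 110 and 88.4 CPM in KO. These 3 genes lie on chromosome 8.

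At a mean of at least 1 CPM, the called genes with the largest rises were expressed at low levels. *Filip1*, which binds filamin, was at 0.595 and 0.822 CPM in WT and 2.28 and 1.75 CPM in KO, with a log2 fold change of 1.48 (SE 0.41). *Prrg1*, a transmembrane protein with a Gla domain, was at 2.21 and 2.39 CPM in WT and 5.50 and 5.32 CPM in KO. *Ryr3*, a calcium release channel, was at 3.91 and 3.96 CPM in WT and 7.71 and 9.34 CPM in KO. In *Prrg1*, *Ryr3*, *H2-Q4* and the long noncoding RNA *Miat*, the libraries of a genotype lay close together. *Miat* was at 1.28 and 1.35 CPM in WT and 2.79 and 3.05 CPM in KO. *Filip1* rested on 7 and 11 counts in WT and 31 and 20 in KO. Its rise was 1.69 in number 1 and 0.96 in number 2 on the log2 scale. *Trim67*, a ubiquitin ligase, was at 2.72 and 1.20 CPM in WT and 5.87 and 2.71 CPM in KO. The growth factor receptor *Kdr* rested mainly on KO2, at 5.24 CPM against 1.19 to 1.61 CPM in the other libraries, and *Usp17la*, one of a family of near-identical copies, rested on KO1, at 3.01 CPM against 0.595 to 1.22 CPM.

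Besides *Phf8* and *Pnma5*, the largest falls at a mean of at least 1 CPM were those of *Vstm5*, *Gm11945*, *Skida1*, *Abhd6*, *Wdr41* and *Spire2*. *Abhd6*, a lipase that degrades monoacylglycerol, was at 12.9 and 11.8 CPM in WT and 6.90 and 8.55 CPM in KO. *Wdr41*, a partner of C9ORF72, was at 26.7 and 29.2 CPM in WT and 17.5 and 18.7 CPM in KO. Their log2 fold changes were -0.68 (SE 0.15) and -0.63 (SE 0.10). The actin nucleator *Spire2* fell by 0.59 on the log2 scale, *Vstm5*, a membrane protein, by 0.95, *Gm11945* by 0.74 and *Skida1* by 0.72. In *Skida1* the fall was 0.29 in number 1 and 1.09 in number 2, and it was not called in the likelihood ratio test. All 6 had both KO libraries below both WT libraries, as had 11.9% of all genes. They were picked for a large fall in these same libraries.

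Chromosome 8 differed from the other chromosomes. Its 773 tested genes had a median log2 difference of -0.05 in number 1 and -0.06 in number 2, while the medians of the other autosomes and chromosome X ranged from -0.02 to 0.03 and from -0.01 to 0.04. Of these genes 43.7% were lower in KO in both numbers, compared with 22.3% to 32.0% on the other chromosomes, and 12 were called higher and 33 lower. The share called lower was 4.27% on chromosome 8 and 1.20% elsewhere. The shift was spread along the chromosome, with a median below 0 in 11 of 13 bins of 10 Mb in number 1 and in 13 of 13 in number 2. In NPCs the median log2 fold change of chromosome 8 genes was -0.01 beside 0.00 for all genes, and in STR and PFC it was 0.00 and -0.02 beside 0.00 and -0.02. Among genes named above, *Mtmr7*, *Vps4a*, *Kat6a*, *Spire2* and *Msmo1*, which fell, and *Trim67*, *Mmp2* and *Ddx60*, which rose, lie on chromosome 8. Without chromosome 8 genes, a check added after the data were seen, 265 genes were called higher and 172 lower, among them 4 fibroblast genes in place of 7.

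**Figure D5:**
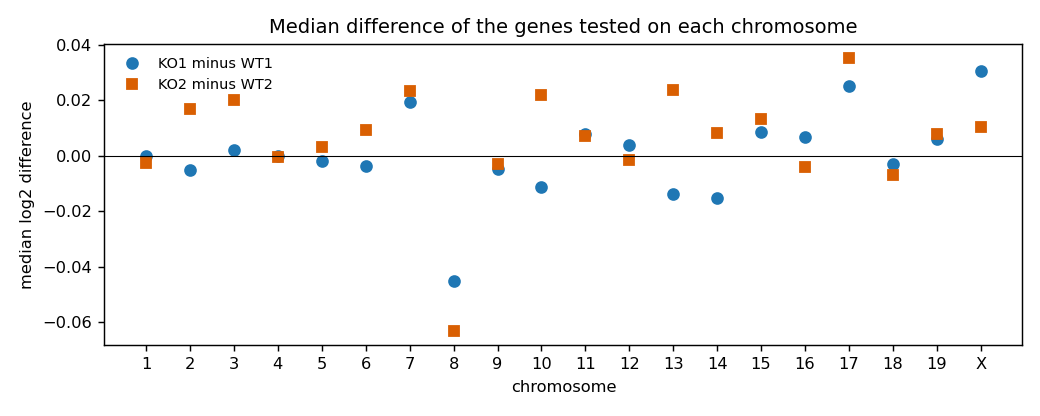
Median log2 CPM difference of the genes tested on each chromosome, KO1 minus WT1 as circles and KO2 minus WT2 as squares. Chromosome 8 lies lowest in both numbers, at -0.05 and -0.06, and every other chromosome is between -0.02 and 0.04.

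Around *Phf8* itself, 42 genes within 5 Mb on either side were tested. Of these 1 was called, *Gm15148*, which was higher, beside 2.04% of all genes called higher. The median log2 fold change was 0.04. *Gm15148*, a processed pseudogene, was the nearest tested gene before *Phf8*. It was at 30.1 and 29.3 CPM in WT and 35.2 and 39.1 CPM in KO. *Huwe1*, the nearest tested gene after *Phf8*, was at 970 and 607 CPM in WT and 987 and 570 CPM in KO. *Kdm5c*, farther along, was at 240 and 234 CPM in WT and 245 and 219 CPM in KO. Neither *Huwe1* nor *Kdm5c* was called.

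Promoters were searched for 3 of the lists, Notch and proneural, germline and cholesterol, each for a motif known for such genes. A window is the 250 bases before a RefSeq start site (build GRCm38.p6), and those printed hold no annotated exon base. Capitals mark the motif searched on both strands. For Notch and proneural genes this was the E-box CAGCTG, the kind of site that proneural factors bind, which was in 13.0% of all 32851 windows and in a window of 14.6% of the genes tested. In the list 7 of 28 genes with a sequence held it, and of the 8 called ones 4 did (*Dll1*, *Dll3*, *Gadd45g* and *Hes6*). The windows of *Dll1* and *Dll3* consist wholly of annotated exon, 250 of 250 bases, while those of *Gadd45g* and *Hes6* hold no exon base. Of all genes called higher with a sequence 16.7% held it and of those called lower 16.8%.
Hes6, chr1:91414039-91414288, minus strand: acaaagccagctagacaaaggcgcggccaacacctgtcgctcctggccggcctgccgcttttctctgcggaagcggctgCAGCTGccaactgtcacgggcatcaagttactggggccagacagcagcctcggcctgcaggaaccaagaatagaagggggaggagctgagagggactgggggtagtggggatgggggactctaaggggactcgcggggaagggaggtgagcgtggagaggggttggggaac
Gadd45g, chr13:51846425-51846674, plus strand: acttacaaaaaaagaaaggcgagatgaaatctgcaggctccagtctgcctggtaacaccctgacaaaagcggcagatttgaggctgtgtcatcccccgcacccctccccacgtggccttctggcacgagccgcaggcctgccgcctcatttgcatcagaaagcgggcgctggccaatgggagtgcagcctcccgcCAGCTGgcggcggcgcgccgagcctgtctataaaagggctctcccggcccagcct
For germline genes it was the E-box CACGTG, bound by MAX and its partners, which was in 6.02% of all windows and in a window of 9.91% of the genes tested. Of the 26 genes of that list with a sequence 9 held it, and of the 6 that fell 4 did (*Ddx4*, *Hormad1*, *Mael* and *Stk31*), the window of *Ddx4* with 165 exon bases and that of *Mael* with 3. Of all genes called lower with a sequence 9.32% held it and of those called higher 9.87%.
Stk31, chr6:49395289-49395538, plus strand: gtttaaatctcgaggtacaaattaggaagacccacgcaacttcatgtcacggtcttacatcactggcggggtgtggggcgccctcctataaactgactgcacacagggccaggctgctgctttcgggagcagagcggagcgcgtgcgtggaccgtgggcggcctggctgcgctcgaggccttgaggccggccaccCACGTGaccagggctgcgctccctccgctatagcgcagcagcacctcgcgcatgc
Hormad1, chr3:95559427-95559676, plus strand: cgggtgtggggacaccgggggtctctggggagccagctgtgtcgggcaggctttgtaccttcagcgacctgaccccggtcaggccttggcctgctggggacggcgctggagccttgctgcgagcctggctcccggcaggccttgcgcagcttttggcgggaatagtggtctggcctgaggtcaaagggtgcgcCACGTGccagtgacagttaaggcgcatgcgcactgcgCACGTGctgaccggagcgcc
For cholesterol genes it was TCACNCCAC, a form of the sterol element, which was in 1.05% of all windows and in a window of 1.28% of the genes tested. Of the 16 genes of that list with a sequence *Hmgcs1* alone held it.
Hmgcs1, chr13:119690101-119690350, plus strand: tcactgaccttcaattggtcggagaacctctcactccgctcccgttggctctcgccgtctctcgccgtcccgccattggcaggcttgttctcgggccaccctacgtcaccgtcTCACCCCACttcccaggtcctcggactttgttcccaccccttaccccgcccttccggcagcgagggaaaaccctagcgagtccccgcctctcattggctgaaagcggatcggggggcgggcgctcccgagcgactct
A match describes letters in a window and no binding was measured. Windows of genes called higher had a median of 13 CpG dinucleotides and those of genes called lower 18, compared with 15 for all genes tested.

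The genes called in ESCs were then followed in the other samples, which share no library with them. An interaction term asked whether the KO effect differed between the cell types, and 0 genes (0%) passed in edgeR's quasi-likelihood test, with 1049 of 16605 genes (6.32%) at an unadjusted p under 0.05. DESeq2 also called 0. In NPCs *Phf8* alone was called (0.00697%), so of the genes called in ESCs 0 others passed there. The sign in NPCs was the same for 163 of 260 higher genes (62.7%) and 123 of 183 lower genes (67.2%), while 50.4% of all genes were above 0. The median log2 fold change in NPCs was 0.07 for the former and -0.06 for the latter, beside 0.00 for all. Across 13103 genes without *Phf8*, fold changes in ESCs and NPCs correlated with r = 0.0944, as a description.

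In STR 0 genes (0%) passed edgeR's quasi-likelihood test in the whole comparison, with 1346 (8.70%) at an unadjusted p under 0.05. The sign was the same for 170 of 279 higher (60.9%) and 102 of 180 lower genes (56.7%), while 49.9% of all genes were above 0. In PFC the sign was the same for 120 of 278 higher genes (43.2%, where 43% of all genes were above 0) and 116 of 181 lower genes (64.1%). At an unadjusted p under 0.05, 20 of the higher genes had the same and 23 the opposite sign in PFC. For the lower genes these counts were 17 and 5. In STR they were 33 and 3 for higher and 5 and 4 for lower genes. In NPCs they were 6 and 2 for higher and 17 and 1 for lower genes. In PFC 98 genes (0.638%) were called, of which 3 besides *Phf8* were called in ESCs. The collagen gene *Col6a1* was higher in both (0.27 and 0.59 on the log2 scale), the phosphodiesterase *Pde8a* was lower in both (-0.33 and -0.80), and *Gsn*, which encodes the actin-severing protein gelsolin, was higher in ESCs and lower in PFC (0.27 and -0.46). *Col6a1* and *Gsn* are expressed by fibroblasts and were higher in the libraries numbered 2. Of the proneural genes, *Hes6* had log2 fold changes of 0.26, 0.19 and 0.22 and *Insm1* of -0.14, 0.08 and 0.07 in NPCs, STR and PFC, and none passed the test there.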

How the data were processed

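Libraries were made with the Illumina TruSeq kit. The authors mapped reads to mm10 (GRCm38) using STAR and counted those on Ensembl genes using HTSeq. Per the labels, CASAVA 1.7 was also used, and the version of STAR is not given in the sources used here. Each deposited table holds raw counts for 1 sample, and its summary lines were left out. Between 43.2% and 45.5% of the entries that HTSeq reported for ESCs were alignments to several places and were not counted on genes. A read may be entered there more than once, so this need not be the share of reads lost. Values of genes with close copies are uncertain. Of 39179 gene identifiers, 37693 matched the GENCODE annotation. No use of strand is stated, so reads of overlapping and antisense genes cannot be told apart.

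Counts were filtered with filterByExpr, normalized with TMM and tested with edgeR (version 4.0.16, R 4.3.3) by the robust quasi-likelihood test with Benjamini-Hochberg adjustment at 0.05, without and with the replicate number. Log2 CPM used a prior count of 2. DESeq2 version 1.42.0 was an alternative. The pipeline was tested on simulated data. With 2 libraries against 2, an exact two-sided permutation test cannot go below p = 0.333, so none was used for single genes. Deviations from genotype means of libraries with the same number correlated with r = 0.876, which with 2 pairs is a hint from the data and not from the design. Genes were named by a rule: the 8 higher and 8 lower genes of smallest p, and the 8 of each with the largest change at a mean of at least 1 CPM, among those called and moving the same way in both numbers. Other genes are members of the lists. The comparison, members and lists were chosen with earlier results of these data known, and the Notch and antigen lists and the checks without chromosome 8 or number-dependent genes after seeing the data. Values of some list members are not reported here.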

Additional observations from a re-analysis of the deposited data

Results flagged for a closer look

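*Zfp229* was lower in both KO ESC libraries, whereas in NPCs every KO library was above every WT library. It was at 18.2, 17.7 and 18.6 CPM in the WT and 20.3, 18.8 and 19.06 CPM in the KO NPC libraries, with a log2 fold change of 0.0951 there and -0.53 in ESCs. It was picked out because the genotypes were apart in opposite directions in the 2 cell types, as in 1 of 43 genes, those of the lists or named that were called without overlap in ESCs and tested in NPCs, while 3 of the 43 were apart in the same direction. The share of all genes apart in NPCs was not computed, so these counts cannot be set against it. In edgeR's quasi-likelihood test neither the change of *Zfp229* in NPCs nor its interaction of cell type and genotype (adjusted p = 0.575) passed.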

How the results depend on the processing

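The ESC calls depended on the model. Without the replicate number 0 genes were called in edgeR's quasi-likelihood test, also with each library left out in turn (0 to 0) and under other normalization or filters, while DESeq2, the likelihood ratio test and the exact test called 1 each. With the replicate block 512 genes were called (308 higher and 204 lower). Within that block, DESeq2 called 5 (3 and 2), the likelihood ratio test 298 (90 lower), the joint fit of ESCs and NPCs 1 (0 higher and 1 lower), and a log2 fold change beyond 1 left 18 (16 and 2). The other block alternatives, among them a GC content offset (568), RLE size factors (582), no robust estimation (534), no filter (401) and a minimum of 10 counts in every library (522), stayed within 1.5 times of 512. With either number left out, 506 to 511 of the 512 genes kept the sign of their fold change, which the remaining pair had helped to set. The same-way count of 161 genes at 1.5-fold became 77 (64 higher and 13 lower, with 30 opposite) when at least 10 counts were required in every library. Of the ESC genes followed elsewhere, the 2 called in the same direction became 4 with a replicate block within each tissue. Where counts changed, the cause was not tested. Of the genes given as called in the text, *Nr5a2*, *Cdk1*, *Nnat* and *Sqle* lost the call with the GC offset, and *Sqle* and *Ddx60* without robust estimation. Without a filter, several lists lost calls. Called there were 2 pluripotency, 3 cholesterol, 4 fibroblast and 2 higher Nodal and BMP genes, and 0 of the E2F, glycolysis, and FGF and ERK genes. Germline (6) and primed epiblast (4) calls stayed the same in number. Depth of 11455757 to 13657534 counts and 2 libraries a genotype limit what can be seen. The number of libraries, fibroblast RNA and the 1 residual degree of freedom bound how firmly the 512 calls can be read.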
